A study of Mus musculus with 30 samples.

Results

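Alternatively activated macrophages are recognised by a small set of transcripts that interleukin-4 (IL-4) and interleukin-13 switch on. The 7 described here are Arg1, Retnla, Chil3, Mrc1, Il4ra, Clec10a and Pdcd1lg2, picked by symbol from the 50764 gene models of a mouse RNA sequencing series. All 7 matched a single Ensembl identifier, and all 7 passed the low count filter of the macrophage fit (Pdcd1lg2 only through a few counts). Their levels are given as CPM (counts scaled to a common library total) in each of 18 macrophage libraries, which form 6 groups of 3.

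IL-4 and IL-13 signal through a receptor that contains the IL-4 receptor alpha chain, encoded by Il4ra. The receptor activates Janus kinases and the transcription factor STAT6, which acts together with factors such as PU.1, C/EBPβ and PPARγ at macrophage genes. Among the target genes, Arg1 encodes an arginase that turns arginine into ornithine and urea, Retnla (RELMα) and Chil3 (Ym1) encode secreted proteins, Mrc1 (the mannose receptor, CD206) and Clec10a (a galactose-type lectin, CD301) encode endocytic surface lectins, and Pdcd1lg2 encodes PD-L2, a ligand of the T cell receptor PD-1. Several of these genes also respond to other signals, and retinoic acid, the active form of vitamin A, is known to shape the macrophages of the body cavities.

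The macrophages were sorted on F4/80 and grouped by their labels as ex vivo cells (no culture), cells kept in culture alone, cells given 1 µM all-trans retinoic acid (ATRA), cells co-cultured with PDPN+ stromal cells of the omentum, cells cultured with PDPN+ cells in a transwell, and cells given 1 µM BMS493, which holds retinoic acid receptors in their repressive state (an inverse agonist). PDPN+ cells sorted from the cultures gave 12 further libraries in 4 groups (alone, co-culture, transwell and BMS493). The labels used here state no strain, age or time in culture, and leave unsaid if macrophages and PDPN+ cells shared the dish in the BMS493 groups. Each processing batch (mbb336, mbb339 and mbb340) holds the replicate of the same number (1, 2 and 3) from every group. Nothing says that replicates came from separate animals or cultures, so the p-values measure the spread between these samples, which may be technical.

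Macrophage libraries held 29769558 to 54099085 counts from 12678 to 25000 cells. Adgre1, the F4/80 gene, lay between 1794 and 4916 CPM in them, and all 9 macrophage markers had counts in every macrophage group. Their levels were not steady. In cells cultured alone against ex vivo, 4 of the 9 were called lower and 1 higher (edgeR), beside 8.5% and 9.31% of all tested genes. Log2 fold changes were −5.63 for Icam2, −4.75 for Timd4, −3.64 for Gata6, −1.63 for Itgam and 1.13 for Cd68. Timd4 was missed without alone replicate 3 (−4.20, adjusted p = 0.101, edgeR). The summed level of 8 fibroblast markers was 0.757 to 10.3 CPM ex vivo and 9.21 to 321 CPM in cells cultured alone. None of the 8 was called in cells alone against ex vivo, with a median log2 fold change of 1.95. The values ran from −4.40 for Pdgfrb, the only marker that was lower, to 10.09 for Pdpn (adjusted p = 0.0503, edgeR). Without alone replicate 3 Pdpn was at 5.59, with a mean of 3.11 CPM in cells alone, and Dcn went from 5.49 to −0.23. How much of the sum comes from stromal cells was not tested. The fibroblast marker sum was 468 to 1184 CPM in co-culture macrophages and 687 to 1451 CPM in BMS493 macrophages. It was 32.2 to 426 CPM in transwell macrophages and 32.7 to 249 CPM with ATRA. In PDPN+ libraries the 9 macrophage markers summed to 186 to 253 CPM alone and 1553 to 2403 CPM in co-culture. They summed to 142 to 677 CPM in the transwell and 1682 to 3657 CPM with BMS493. For BMS493 against cells alone or against co-culture, the drug and any difference in the stromal cells present cannot be told apart. Cells cultured alone in batch mbb340 stood apart from the other 2 libraries of their group for Arg1, so Arg1 comparisons with cells alone, and the calls on entering culture that change without this library, are also given without it. In bulk libraries, fewer cells of a type and less RNA per cell cannot be told apart.

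The promoters of Retnla and Chil3, the members that fell most in culture, and of Mrc1, which rose, are shown because IL-4 response is usually read through the factors that bind there. They are read from RefSeq (GRCm38.p6), 5′ to 3′ on the gene's strand, from 250 bases before the RefSeq start and ending where the GENCODE gene model begins. RefSeq promoter entries were found for 5 of the 7 members, not for Arg1 and Clec10a. Capitals mark matches on either strand to the STAT6-type motif (TTC and GAA with 4 bases of any kind between them), TTGCNNAA (C/EBP type), AGGTCA (the core motif of nuclear receptors) and GAGGAA (PU.1 type, TTCCTC on the other strand).
Retnla, chr16:48842359-48842550 (+): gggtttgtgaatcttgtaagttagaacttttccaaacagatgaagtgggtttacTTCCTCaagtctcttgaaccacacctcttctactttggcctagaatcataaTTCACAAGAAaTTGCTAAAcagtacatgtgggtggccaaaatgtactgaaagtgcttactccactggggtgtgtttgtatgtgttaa
Chil3, chr3:106167565-106167814 (-): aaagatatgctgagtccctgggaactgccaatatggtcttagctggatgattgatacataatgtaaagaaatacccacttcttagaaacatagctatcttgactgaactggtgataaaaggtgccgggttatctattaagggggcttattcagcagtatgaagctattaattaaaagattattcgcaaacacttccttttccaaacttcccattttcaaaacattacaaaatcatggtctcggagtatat
Mrc1, chr2:14229164-14229391 (+): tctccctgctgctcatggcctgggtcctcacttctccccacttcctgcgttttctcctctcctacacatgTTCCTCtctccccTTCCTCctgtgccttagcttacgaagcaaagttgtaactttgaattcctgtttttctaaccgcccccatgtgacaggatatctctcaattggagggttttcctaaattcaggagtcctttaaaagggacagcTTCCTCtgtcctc
In the Retnla window the STAT6-type match TTCACAAGAA begins 145 bases before the RefSeq start and the C/EBP-type match TTGCTAAA begins 134 bases before it. An AGGTCA match at 50 bases lies in the stretch not printed, and the PU.1-type match begins at 196 bases. Mrc1 holds 3 PU.1-type matches, at 180, 167 and 35 bases, and no other match. The Chil3 and Il4ra windows hold none of the motifs, which says only that these letters are not in those windows. In Pdcd1lg2 a single stretch, TTCCTCAGAA at 82 bases, matches both the STAT6-type and the PU.1-type letters. Among 32851 RefSeq promoters, windows of the same 250 bases hold the STAT6-type letters in 5.85%, the C/EBP-type letters in 9.56%, AGGTCA in 14.0% and the PU.1-type letters in 23.3%.

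Il4ra, the receptor subunit that makes a macrophage able to respond (ENSMUSG00000030748, chr7:125552120-125579474, GRCm38), was lowest ex vivo and rose in culture. In batches mbb336, mbb339 and mbb340 it measured 54.2, 68.9 and 68.8 CPM ex vivo, against 198, 95.8 and 175 CPM in cells cultured alone. The groups did not overlap. The fitted log2 fold change was 1.29 (SE 0.302, adjusted p = 0.00804, edgeR quasi-likelihood test over 17774 genes). This call was kept in 13 of 15 alternatives (adjusted p from 0.000635 to 0.164) and was missed when batch mbb336 (0.99, adjusted p = 0.164) or batch mbb339 (1.62, adjusted p = 0.0606) was left out.

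The highest Il4ra levels were in co-culture, with 441, 439 and 254 CPM, and in transwell culture, with 349, 374 and 221 CPM. Cells with BMS493 held 328, 280 and 241 CPM, and cells with ATRA 248, 201 and 164 CPM. The co-culture and transwell libraries all lay above the 3 libraries cultured alone, and batch mbb340 was the lowest of its group in co-culture, transwell, BMS493 and ATRA. Ordered by mean level, co-culture (378 ± 108 CPM, SD, n = 3), transwell (315 ± 82.1), BMS493 (283 ± 43.8), ATRA (204 ± 42.0) and alone (156 ± 53.5) each overlapped their neighbour, and the ex vivo libraries (64.0 ± 8.47) overlapped none.

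Against cells cultured alone, the log2 fold change of Il4ra in co-culture was 1.23 (SE 0.301, adjusted p = 0.0726, edgeR), which missed the threshold. It was higher in 3 of 3 batches, and the fit with batch as a block called it (1.21, adjusted p = 0.0352, edgeR). Leaving out co-culture replicate 3 (1.48, adjusted p = 0.0352) or batch mbb340 (1.51, adjusted p = 0.0247) called it too, with adjusted p from 0.00441 to 1 over its 15 alternatives. PDPN+ cells express Il4ra themselves, at 515, 592 and 575 CPM in co-culture and 111, 156 and 55.7 CPM alone. The fibroblast markers in co-culture macrophages stood at 1.17% to 4.26% of their level in the PDPN+ partner libraries. That share of the partners' Il4ra equals 6.93 to 24.5 CPM, and its part in the difference was not tested.

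Arg1, the arginase gene (ENSMUSG00000019987, chr10:24915221-24927484), reached the highest levels of the 7 and differed widely between batches. Ex vivo cells held 368, 1425 and 566 CPM in batches mbb336, mbb339 and mbb340. Cells cultured alone held 51.8, 141 and 4281 CPM. The first 2 of these lie below every ex vivo library, and the third lies above them all. On the deposited per-length scale, which allows levels of different genes to be ordered, its mean ranked 100 of 50716 genes ex vivo and 52 in cells cultured alone, or 1013 without alone replicate 3.

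With ATRA, Arg1 measured 1645, 5792 and 12836 CPM, in co-culture 10642, 13448 and 16916 CPM, and in the transwell 6538, 8874 and 16324 CPM. Cells with BMS493 held 560, 248 and 3603 CPM. Against the cells alone of the same batch these are log2 ratios of 3.42, 0.81 and −0.25. The per-length mean of Arg1 ranked 8 in co-culture, 9 in the transwell, 11 with ATRA and 57 with BMS493. Every co-culture and transwell library lay above every library cultured alone and above every BMS493 library, whereas the ATRA group overlapped the alone group through batch mbb340. Of all tested genes 14.2% did not overlap between co-culture and alone and 10.9% between transwell and alone. The share was 15.5% between BMS493 and co-culture. Ordered by mean, co-culture (13669 ± 3142 CPM, SD, n = 3), transwell (10578 ± 5111), ATRA (6758 ± 5657), alone (1491 ± 2417), BMS493 (1470 ± 1853) and ex vivo (786 ± 562) each overlapped the next.

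**Figure D1:**
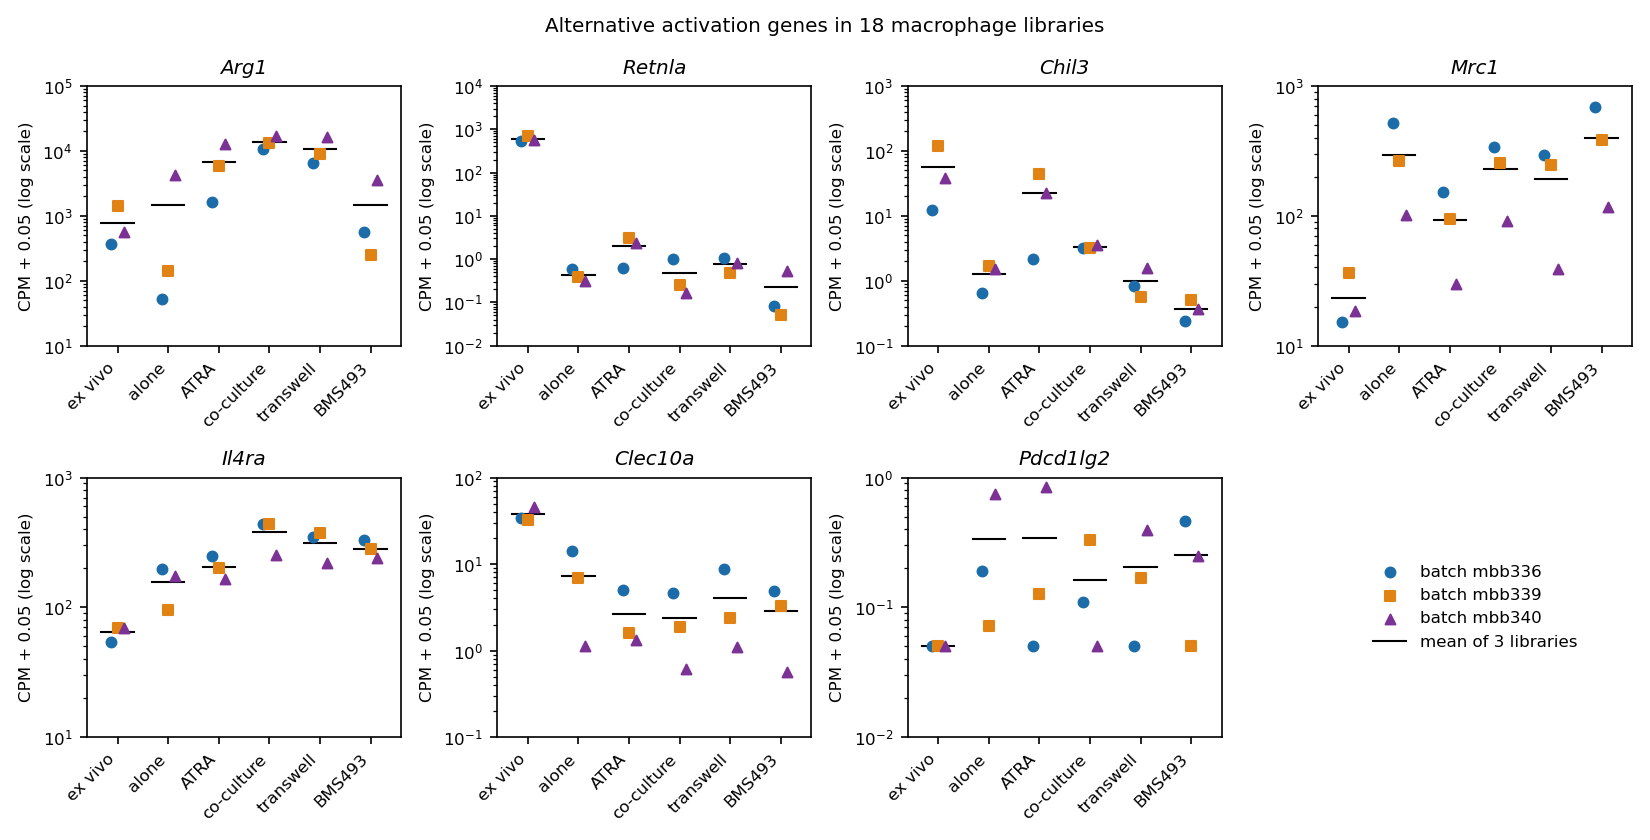
Level of each of the 7 genes in the 18 macrophage libraries, as CPM + 0.05 on a log scale (vertical axis), by culture group (horizontal axis). Symbols stand for the 3 batches and bars for group means. Retnla is high only in the ex vivo group, and the 3 co-culture libraries hold 10642 to 16916 CPM of Arg1.

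None of the Arg1 differences passed the test with all libraries. Its log2 fold change was 2.18 with ATRA (SE 1.29, adjusted p = 0.794), 3.19 in co-culture (SE 1.35, adjusted p = 0.333) and 2.84 in the transwell (SE 1.33, adjusted p = 0.519), each against cells cultured alone and by edgeR. It was −3.22 for BMS493 against co-culture (SE 1.35, adjusted p = 0.476). These 4 comparisons share libraries and are not independent of each other. Within each batch the direction was the same: ATRA, co-culture and transwell were above cells alone in 3 of 3 batches, and BMS493 was below co-culture in 3 of 3.

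The sizes within batches differed. In batches mbb336, mbb339 and mbb340 the log2 ratio of ATRA to alone was 4.98, 5.36 and 1.58, and that of co-culture to alone was 7.67, 6.57 and 1.98. The smaller ratios belong to batch mbb340, whose cells cultured alone already held 4281 CPM. Without batch mbb340, edgeR called Arg1 with ATRA (5.26, adjusted p = 0.0393), in co-culture (6.88, adjusted p = 0.0075), in the transwell (6.28, adjusted p = 0.0167) and with BMS493 against co-culture (−4.90, adjusted p = 0.0220). Without alone replicate 3 only, it was called in co-culture (7.09, adjusted p = 0.0278) and missed with ATRA (6.06, adjusted p = 0.0779) and in the transwell (6.72, adjusted p = 0.0572). The batch block gave 4.62 for co-culture (adjusted p = 0.0552). Over the 15 alternatives of each comparison the adjusted p ran from 0.0393 to 1 (ATRA), 0.0075 to 1 (co-culture), 0.0167 to 1 (transwell) and 0.0220 to 1 (BMS493).

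Direct contact and transwell culture were not told apart by Arg1. The co-culture level exceeded the transwell level in 3 of 3 batches, by log2 ratios of 0.05 to 0.70, with a fitted log2 fold change of 0.35 (SE 1.24, adjusted p = 1.0, edgeR). PDPN+ cells held 1.77 to 2.51 CPM of Arg1 when cultured alone and 134 to 189 CPM in co-culture. The summed level of the 9 macrophage markers in these PDPN+ libraries was 186 to 253 CPM alone and 1553 to 2403 CPM in co-culture, and its part in their Arg1 was not tested. The fibroblast marker share of the partners' Arg1 corresponds to 1.57 to 8.05 CPM in co-culture macrophages.

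**Figure D2:**
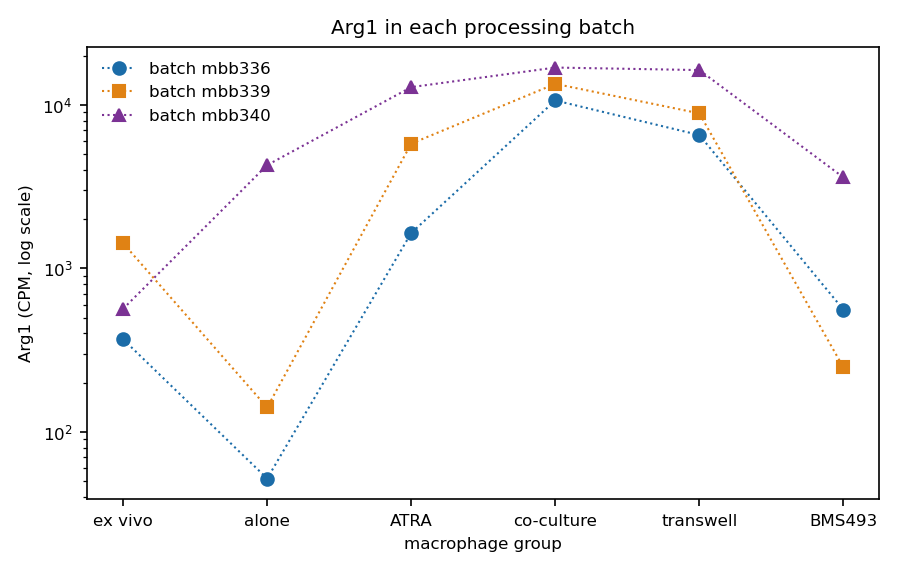
Arg1 level (CPM, log scale) in each macrophage group, with a dotted line joining the libraries of a batch as a guide to the eye. Batch mbb340 lies above the other 2 batches in all 5 cultured groups, and in batches mbb336 and mbb339 cells cultured alone lie lowest.

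Retnla, the gene for the secreted protein RELMα (ENSMUSG00000061100, chr16:48842551-48844461), was an ex vivo transcript. It measured 537, 683 and 576 CPM in the 3 ex vivo libraries and 0.528, 0.335 and 0.258 CPM in cells cultured alone. The fall was the largest of the 7 genes, with a log2 fold change of −10.64 (SE 1.05, adjusted p = 1.28e-05, edgeR), and it was called in all 15 alternatives (adjusted p at most 0.00912). No culture condition brought it back near its ex vivo level. ATRA libraries held 0.562, 3.10 and 2.31 CPM, and the other 9 treated or partnered macrophage libraries 0 to 0.993 CPM. With ATRA the 3 libraries lay above those cultured alone, barely so in batch mbb336, while 8.89% of all tested genes did not overlap in this comparison. The log2 fold change of 2.38 (SE 0.821, adjusted p = 0.377, edgeR) did not pass the test. These cultured levels rest on 37 counts over the alone group and 172 over the ATRA group.

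Chil3, which encodes the secreted chitinase-like protein Ym1 (ENSMUSG00000040809, chr3:106147554-106167564), fell in culture as well. Ex vivo libraries held 12.1, 117 and 38.0 CPM and libraries cultured alone 0.599, 1.65 and 1.47 CPM, a log2 fold change of −5.49 (SE 0.991, adjusted p = 0.00145, edgeR). The call was kept in 14 of 15 alternatives (adjusted p from 9.11e-10 to 0.0609). It was missed without batch mbb339 (−4.59, adjusted p = 0.0609), and without ex vivo replicate 2, the highest library, the fall was −4.32 (adjusted p = 0.00614).

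ATRA libraries held 2.12, 43.7 and 22.5 CPM of Chil3, all above the cells cultured alone, with batches mbb339 and mbb340 inside the ex vivo range. Of all tested genes 8.89% did not overlap between ATRA and alone. The log2 fold change of Chil3 was 4.17 (SE 0.935, adjusted p = 0.0851, edgeR), short of the threshold. The block fit called it (3.85, adjusted p = 0.0307), as did the fit without ATRA replicate 1 (4.71, adjusted p = 0.0146) and DESeq2 (adjusted p = 9.08e-05), with a range up to 1 over 15 alternatives. Co-culture libraries held 3.18, 3.20 and 3.54 CPM, transwell libraries 0.776, 0.513 and 1.50 CPM and BMS493 libraries 0.189, 0.457 and 0.321 CPM. Those 3 groups did not overlap each other, on 304, 77 and 27 counts over the group in the same order. Transwell and BMS493 came closest in batch mbb339, at 0.513 and 0.457 CPM on 13 counts each. Of all tested genes 9.09% did not overlap between co-culture and transwell and 15.5% between BMS493 and co-culture. For transwell against BMS493 the share was not computed.

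Against co-culture, BMS493 gave a log2 fold change of −3.37 for Chil3 (SE 0.967, adjusted p = 0.164, edgeR), lower in 3 of 3 batches. The block fit called this difference (−3.64, adjusted p = 0.0389), as did a fit of these 2 groups alone (−3.38, adjusted p = 0.0434) and DESeq2 (adjusted p = 0.00638), with a range up to 0.793 over 15 alternatives. The 50-base windows of the Chil3 transcripts are shared with its close relative Chil4 in 16.9% of cases, but Chil4 itself reached at most 0.318 CPM in any macrophage library. PDPN+ libraries held at most 0.0707 CPM of Chil3 and 0.508 CPM of Retnla.

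Mrc1, the mannose receptor (ENSMUSG00000026712, chr2:14229392-14332057), moved opposite to the secreted proteins. It measured 15.2, 36.5 and 18.3 CPM ex vivo and 515, 266 and 102 CPM in cells cultured alone, with no overlap. The log2 fold change was 3.67 (SE 0.913, adjusted p = 0.0116, edgeR), called in 11 of 15 alternatives (adjusted p from 5.92e-05 to 0.163). It was missed without ex vivo replicate 1 (3.43, adjusted p = 0.0533), ex vivo replicate 3 (3.50, adjusted p = 0.0534), batch mbb336 (2.79, adjusted p = 0.150) or batch mbb339 (4.24, adjusted p = 0.163). Without alone replicate 1 it was 2.96 (adjusted p = 0.0408).

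ATRA libraries held 154, 93.9 and 29.99 CPM of Mrc1, below the alone library of the same batch in 3 of 3 batches by log2 ratios of −1.75 to −1.50. Since the batches themselves spread further than that, the 2 groups overlapped, and the fitted log2 fold change was −1.67 (SE 0.843, adjusted p = 0.699, edgeR). With the batch block the adjusted p was 0.101. Co-culture libraries held 338, 255 and 91.9 CPM, transwell libraries 292, 248 and 39.1 CPM and BMS493 libraries 690, 383 and 117 CPM. In each batch the BMS493 library had the highest Mrc1 level of the 6 groups, and its log2 fold change against co-culture was 0.78 (SE 0.826, adjusted p = 0.916). Ordered by mean, BMS493 (397 ± 287 CPM), alone (294 ± 208), co-culture (228 ± 125), transwell (193 ± 135), ATRA (92.6 ± 62.0) and ex vivo (23.3 ± 11.5) each overlapped the next (SD, n = 3).

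Clec10a, the other lectin (ENSMUSG00000000318, chr11:70156197-70170834), was highest ex vivo, at 33.9, 32.5 and 46.1 CPM. Cells cultured alone held 14.0, 6.83 and 1.07 CPM. All 15 cultured libraries lay below all 3 ex vivo ones, with 4.93, 1.55 and 1.27 CPM for ATRA, 4.63, 1.80 and 0.565 CPM for co-culture, 8.72, 2.33 and 1.04 CPM for transwell and 4.78, 3.20 and 0.522 CPM for BMS493. For alone against ex vivo the log2 fold change was −2.34 (SE 1.01, adjusted p = 0.129, edgeR). The block fit called it (−3.24, adjusted p = 0.00312), the only one of 15 alternatives to do so (adjusted p up to 0.498). Dendritic cells also express Clec10a, and the summed level of 8 dendritic cell and monocyte markers was 31.8 to 46.7 CPM ex vivo and 74.7 to 249 CPM in cells cultured alone. Most of that sum was Cd209a in the alone libraries other than replicate 3, where its mean was 205 CPM. On entering culture Itgax of this list was called higher (log2 fold change 7.58, adjusted p = 0.00471, edgeR). Ccr2 was called lower (−3.05, adjusted p = 0.00704, edgeR). The part of these markers in the Clec10a level was not tested. Of the 50-base windows of Clec10a transcripts, 8.49% are shared with the neighbouring gene Mgl2, which also read higher ex vivo (16.5 ± 9.38 CPM) than in cells cultured alone (1.40 ± 2.02 CPM, adjusted p = 0.0694).

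Pdcd1lg2, the PD-L2 gene (ENSMUSG00000016498, chr19:29410919-29471161), was close to the detection limit throughout. No count was seen in the 3 ex vivo libraries, and the highest level in any macrophage library was 0.802 CPM, with ATRA in batch mbb340. Cells cultured alone held 24 counts in all, 0.141, 0.0223 and 0.699 CPM by batch. Against a floor of 3 counts over the ex vivo group the observed mean is 10.8-fold higher, and 3.06-fold higher without alone replicate 3. The adjusted p was 0.110 (edgeR). The floor allows for counting error in the ex vivo group only, so these ratios are not lower bounds. The reads also carry no molecular identifiers and can repeat a molecule. Cd274, which encodes the other PD-1 ligand, PD-L1, measured 10.4, 9.82 and 7.08 CPM ex vivo and 43.8, 73.2 and 494 CPM in cells cultured alone. Its log2 fold change of 4.45 (SE 1.37, adjusted p = 0.0345, edgeR) became 2.74 without alone replicate 3 (adjusted p = 0.154), which missed the threshold.

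Taking macrophages into culture moved these genes in both directions. Of the 7, 4 were called: Il4ra and Mrc1 rose, and Retnla and Chil3 fell. Of all genes tested 17.8% were called in this comparison, 9.31% higher and 8.5% lower. The groups did not overlap for 6 of the 7, where 33.1% of all tested genes did not overlap, and for Pdcd1lg2 this rests on 0 counts ex vivo against as few as 1 count in a library cultured alone. They overlapped for Arg1, whose log2 fold change of 0.88 (SE 1.25, adjusted p = 0.698, edgeR) turned to −0.61 with the batch block, −2.98 without alone replicate 3 and −3.23 without batch mbb340 (adjusted p = 0.0190), over a range of 0.0190 to 0.865. The median log2 fold change of the 7 was Arg1's own 0.88, unchanged with Pdcd1lg2 set against its floor, beside 0.08 over all genes. It turned to −0.61 with the batch block and −1.79 without alone replicate 3. Scaling to plain library totals shifted the median of all genes from 0.08 to −0.17 and the split of calls from 1654 higher and 1510 lower to 1155 higher and 2365 lower, while the 4 members kept their calls and directions.

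**Figure D3:**
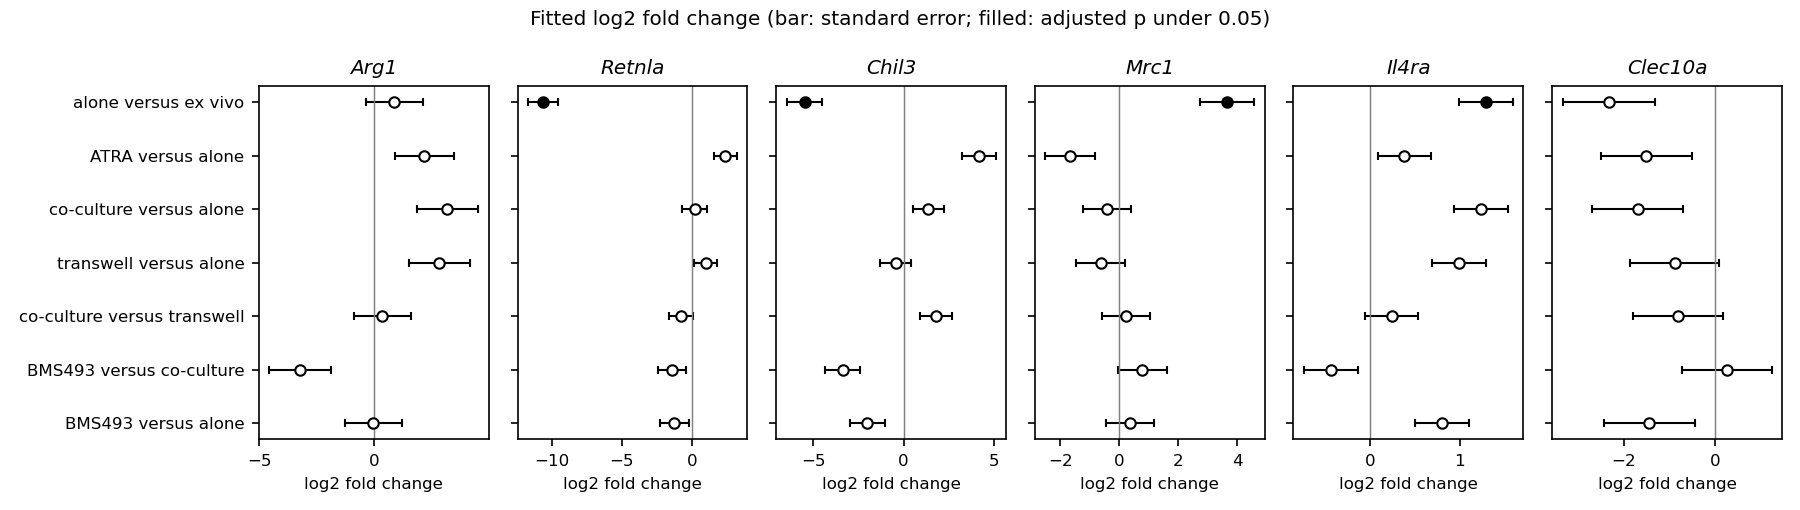
Fitted log2 fold change (horizontal axis, scale differs by panel) of 6 genes in the 7 comparisons (vertical axis), with bars for the standard error and filled points for an adjusted p under 0.05. Filled points occur only for Retnla, Chil3, Mrc1 and Il4ra in the comparison of cells cultured alone with ex vivo cells; Pdcd1lg2 is left out because the ex vivo group has no count.

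Other genes of the programme also went both ways on entering culture. Of 14 tested among 16 further alternative activation genes, 5 rose and 3 fell, with a median log2 fold change of 1.30. Alox15, the lipoxygenase that IL-4 induces, fell from 11652 ± 673 to 236 ± 255 CPM (log2 fold change −5.61, adjusted p = 0.00589), Fn1, the fibronectin gene, fell from 21622 ± 6189 to 1253 ± 1661 CPM (−4.14, adjusted p = 0.00562; −6.14 without alone replicate 3), and the eotaxin gene Ccl24 fell from 211 ± 43.4 to 17.8 ± 10.8 CPM (−3.56, adjusted p = 0.0366; missed without alone replicate 3, at −3.39 and adjusted p = 0.102). Egr2, a transcription factor induced by IL-4, rose from 1.84 ± 0.115 to 78.9 ± 83.0 CPM (5.39, adjusted p = 0.00625; 4.13 and adjusted p = 0.0198 without alone replicate 3). All p-values of this paragraph and the next are from edgeR.

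Of 15 tested among 17 genes of IL-4 and IL-13 signalling, 1 fell and none rose: Klf4, a transcription factor that cooperates with STAT6, went from 10.1 ± 2.30 to 2.34 ± 2.24 CPM (log2 fold change −2.13, adjusted p = 0.0404; −3.13 without alone replicate 3). Stat6 itself lay between 174 and 375 CPM in all 18 libraries. Il13 had no count in any macrophage library and Il4 reached at most 0.379 CPM. In arginine and polyamine metabolism 3 of 14 genes rose and 2 fell. Arg2, the mitochondrial arginase, rose from 0.130 ± 0.0381 to 20.8 ± 14.5 CPM (7.30, adjusted p = 0.000346), and the spermidine synthase gene Srm fell from 60.8 ± 9.12 to 20.8 ± 7.92 CPM (−1.55, adjusted p = 0.0120). Sat1, which encodes a polyamine acetyltransferase, rose (1.44, adjusted p = 0.00372), as did Asl, the argininosuccinate lyase gene (0.90, adjusted p = 0.000564). Among 14 genes of classical activation that were tested, Slamf7 (6.13, adjusted p = 2.58e-06) and Tnf (3.98, adjusted p = 0.00197; 3.32 without alone replicate 3) rose and Gbp2 fell (−1.39, adjusted p = 0.00219). Close relatives of the 7 genes gave 2 rises among 8 tested, Arg2 and Cd274, of which Cd274 was missed without alone replicate 3.

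ATRA, PDPN+ cells and BMS493 changed none of the 7 genes past the threshold in the main fit, which has group as its only factor and leaves out batch. With ATRA 0.326% of all genes were called, in co-culture 0.698%, in the transwell 0.0281%, each against cells cultured alone, and 0.0394% between co-culture and transwell. For BMS493 the share was 0.85% against co-culture and 0.737% against cells alone. At an unadjusted p under 0.05 there were 2 members with ATRA (Chil3, Retnla), 2 in co-culture (Il4ra, Arg1), 2 in the transwell (Il4ra, Arg1), 0 between co-culture and transwell, 2 for BMS493 against co-culture (Arg1, Chil3) and 1 against cells alone (Il4ra). Of all tested genes 7.60%, 12.8%, 9.56%, 4.47%, 8.80% and 14.4% were under this p in the same order. DESeq2 called 1, 1, 0, 0, 1 and 0 members in these 6 comparisons, and so did the batch block. The median log2 fold change of the 7 was Il4ra's 0.38 with ATRA and its −0.43 for BMS493 against co-culture, and Mrc1's 0.22 between co-culture and transwell. In the transwell it was Chil3's −0.44, and it was 0.19 in co-culture and −0.47 for BMS493 against cells alone, the values of Retnla and Pdcd1lg2 near the detection limit. The medians of all genes lay between −0.03 and 0.01. These comparisons share the libraries cultured alone or in co-culture.

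Some cell type markers were called among these 6 comparisons. Against cells cultured alone, 2 of 8 fibroblast markers were higher in co-culture and 3 with BMS493. Of 9 macrophage markers 1 was higher with ATRA and 1 in co-culture, against the same cells. With BMS493 against co-culture 1 macrophage marker was lower. Genes of the other further lists were called in BMS493 against co-culture only. Of 14 tested further alternative activation genes 3 fell. Ccl24 went from 171, 224 and 1880 CPM in co-culture to 2.23, 1.79 and 6.18 CPM with BMS493, a log2 fold change of −7.81 (SE 1.35, adjusted p = 0.0129, edgeR). Alox15 went from 3426, 4050 and 382 CPM to 59.0, 21.8 and 7.50 CPM (−6.49, SE 1.30, adjusted p = 0.0279). Tgm2, a transglutaminase used as a marker of alternative activation and also a known retinoic acid target, went from 510, 667 and 1376 CPM to 55.9, 65.2 and 135 CPM (−3.33, SE 0.577, adjusted p = 0.0129). Among classical activation genes Slamf7 rose, from 9.09 ± 2.15 to 43.2 ± 5.66 CPM (2.23, adjusted p = 0.0161). In the IL-4 pathway and in arginine metabolism none of 15 and none of 14 tested genes was called.

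**Figure D4:**
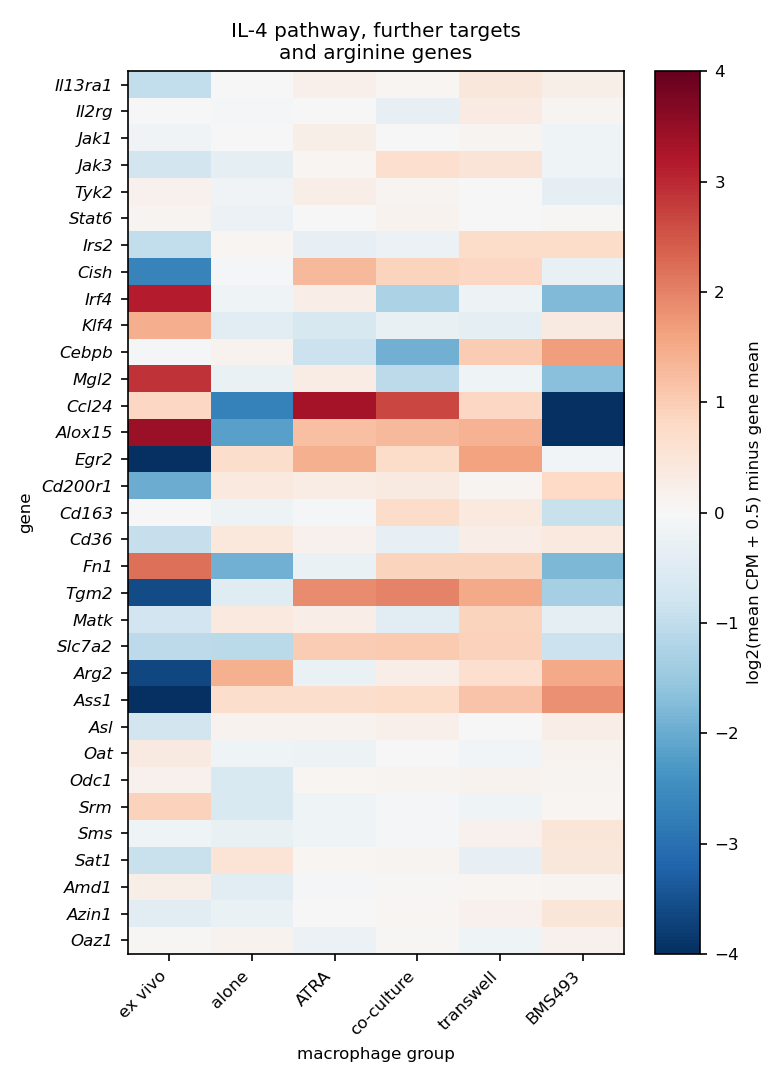
Group means of 33 genes of IL-4 signalling, further alternative activation and arginine metabolism that reach 10 CPM in a macrophage group, drawn as log2(mean CPM + 0.5) minus the gene's mean over the 6 groups (colours end at −4 and 4). Alox15 is highest ex vivo and lowest with BMS493, and Ccl24 and Tgm2 are higher with ATRA and in co-culture than with BMS493; means hide batch differences, with Ass1 and Cish higher and Alox15 lower in batch mbb340 than in batch mbb336.

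Of the 7 genes 3 differed between batches in the 15 cultured macrophage libraries, where an F test of the 2 batch coefficients (edgeR, group in the model, 17218 genes) called 21.9% of all genes. Mrc1 had an adjusted p of 1.5e-05 and Clec10a one of 0.000325, with log2 differences of batch mbb340 against batch mbb336 of −2.43 and −2.97. Both genes were ordered mbb336, mbb339, mbb340 from high to low in 5 of 5 cultured groups. Arg1 differed the other way (2.86, adjusted p = 0.0307) and was highest in batch mbb340 in 5 of 5 groups. Its call was lost when the ATRA (adjusted p = 0.0773), BMS493 (0.0895), alone (0.0560) or transwell (0.0555) group was left out. Il4ra (adjusted p = 0.120), Chil3 (0.245), Retnla (0.851) and Pdcd1lg2 (0.460) were not called, although Il4ra was lowest in batch mbb340 in 4 of 5 groups and was called with plain library totals (adjusted p = 0.0433) and without the alone group (0.0112). A batch holds 1 replicate number, so processing and anything else that differs between replicates cannot be told apart. Ex vivo libraries, which stayed outside this test, did not show these orders.

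**Figure D5:**
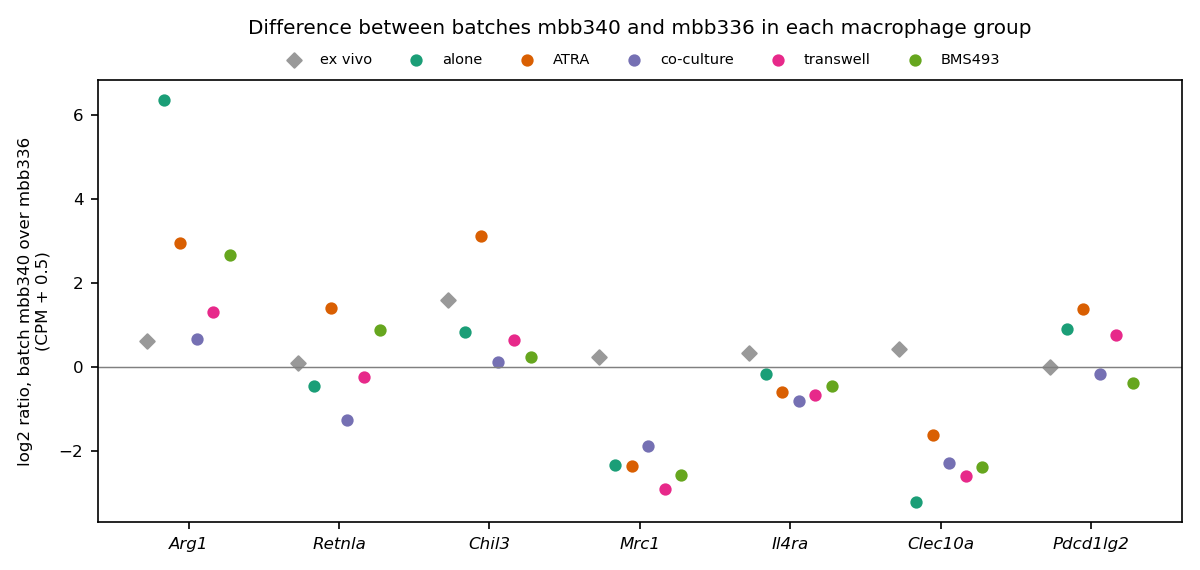
Log2 ratio of batch mbb340 to batch mbb336 (CPM + 0.5, vertical axis) for each of the 7 genes (horizontal axis) in each of the 6 macrophage groups. In the 5 cultured groups Arg1 lies above 0 and Mrc1 and Clec10a lie below 0, and the ex vivo group stays near 0 for the lectins.

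Several signalling genes differed between batches in the same test, and are named here after their values were seen. Of 15 tested IL-4 pathway genes 6 were called. Cish (log2 difference of batch mbb340 against mbb336 of 4.16, adjusted p = 1.04e-05) and Socs1 (2.84, adjusted p = 6.99e-05), feedback inhibitors of cytokine signalling through STAT factors, were higher in batch mbb340, as were the shared receptor chain Il2rg (2.26) and Cebpb (4.85). Jak3 (−0.98) and Irf4 (−3.67) were lower. In co-culture macrophages, for example, Cish measured 2.33, 2.24 and 39.8 CPM in batches mbb336, mbb339 and mbb340. Ex vivo it measured 0.760, 0.800 and 0.866 CPM. Cebpb, the C/EBPβ gene, had another pattern, with 9.63, 22.6 and 21.7 CPM in co-culture and 6.17, 12.7 and 186 CPM ex vivo.

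All 5 called genes of arginine and polyamine metabolism (of 14) were higher in batch mbb340 than in batch mbb336. They were Ass1 (4.85), which makes argininosuccinate, the arginine transporter Slc7a2 (2.64), Nos2 (6.54, though at most 5.34 CPM in any macrophage library), Odc1 (1.18) and Amd1 (0.57). Of 14 further alternative activation genes 7 were called, 5 higher in batch mbb340 (Egr2, Ccl17, Ccl24, Cd200r1, Slc7a2) and 2 lower (Alox15 and the scavenger receptor Cd163). Cell type markers differed between batches too. Of 9 macrophage markers 1 was higher and 4 were lower in batch mbb340, and of 7 tested dendritic cell and monocyte markers 1 was higher and 1 lower. Within that last list, whose calls went both ways, the dendritic cell lectin gene Cd209a measured 229, 181 and 2.61 CPM in cells cultured alone. This is the same order as Clec10a, and it is 1 gene of the list only. All 4 tested mast cell markers were lower in batch mbb340, with a median log2 difference of −4.33 against batch mbb336 (of 5 listed, summed at 0.0314 to 90.4 CPM in cultured macrophage libraries), and of 8 fibroblast markers 2 were higher and 3 lower. Their part in the batch differences of the 7 genes was not tested.

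Genes with the most similar pattern to each member were taken as those with the lowest root mean square difference of standardised log2(CPM + 0.5) over the 18 macrophage libraries, among 8135 or 8136 genes at a mean of 10 CPM or more. For Mrc1 they were Rab3il1 (0.235), Gas6 (0.274) and Aif1 (0.294). For Retnla they were Itgb7 (0.238), S1pr5 (0.242) and Evi5 (0.269), for Clec10a Dusp22 (0.299), Mndal (0.361) and Arhgef3 (0.362), and for Il4ra Itgav (0.361), Tmf1 (0.375) and Tmem268 (0.389). Arg1 (Gpi1, 0.416; Ccr1, 0.437; Akap7, 0.440) and Chil3 (Rras2, 0.482; Acaa2, 0.535; Siva1, 0.539) had less close neighbours. Pdcd1lg2 came closest to Mtfmt (0.604), Slc35b3 (0.691) and Abcc5 (0.701), at counts too low for a pattern. None of these neighbours is among the 7. Within the set, Retnla was most like Chil3 (0.672) and Clec10a (0.684), and Mrc1 was most like Il4ra (0.744). Retnla and Il4ra were the least alike pair (1.91). These libraries share batches and culture groups, so the values describe likeness only.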

How the data were processed

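RNA was measured in 18 macrophage and 12 PDPN+ libraries. Per the file headers, the authors deposited the count of uniquely aligning reads per gene and a size-factor-adjusted RPKM. The submitters' processing notes name GSNAP and GRCm38, without a version; annotation and strand setting are not given in the sources read here. The deposited RPKM served only to order levels between genes. Identifiers were matched to GENCODE names; 192 had no symbol and held 0.0358% of counts. For the co-culture pair of batch mbb336 source names and titles conflict on the cell type, and titles were used.

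The members, gene lists, comparisons and alternatives were chosen with earlier results of these data known. Counts were tested with edgeR 4.0.16 (R 4.3.3, limma 3.58.1; quasi-likelihood, TMM scaling, default filter by group) in a fit of 18 macrophage libraries with group as factor. Benjamini-Hochberg adjustment covered all 17774 genes, with calls made under an adjusted p of 0.05. CPM refer to TMM-scaled totals, and ratios within a batch add 0.5 CPM. The script was tested on simulated data. DESeq2 1.42.0, other scalings, filters, the batch block and left-out libraries or batches were alternatives. Batch labels pair same-numbered libraries: deviations from group means correlated with a median r of 0.262 (45 pairs, −0.0991 to 0.733, 31 over 0.1). Apart from cell type markers, other genes named for a comparison of groups are those called in it, without overlap of replicates and with at least 10 CPM in the higher group. Up to 4 were taken per list by size of change. Mgl2, Chil4, Stat6, Il4 and Il13, genes of the batch test and genes of similar pattern are named outside this rule. No replicates were copies (lowest chi-square per degree of freedom 42.7).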

Additional observations from a re-analysis of the deposited data

How the results depend on the processing

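Of 360 fold changes of single genes under 15 alternatives (24 results), 326 kept their direction and side of the threshold, 16 passed it newly, 7 no longer passed it and 11 turned direction; the turns all concern Arg1 in 2 comparisons whose main value was not called. For alone against ex vivo, Arg1 (0.88) became −0.61 with the replicate block and −3.23 without batch mbb340, and leaving out single replicates gave −2.98 to 1.66. For BMS493 against alone, Arg1 (−0.03) became 0.0018 with DESeq2 size factors, 0.012 with plain library totals, 0.60 with the replicate block, 0.0052 with the DESeq2 test and 1.98 without batch mbb340, and leaving out single replicates gave −1.91 to 3.86. The cause was not tested.

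The number of the 7 genes called for alone against ex vivo was 4, 5 with the replicate block, 2 without batch mbb336 and 1 without batch mbb339. With ATRA it was 0, and 1 with the replicate block, the DESeq2 test or without batch mbb340. In co-culture against alone it was 0, 1 with the replicate block or the DESeq2 test and 2 without batch mbb340. In the transwell it was 0, and 1 without batch mbb340. For BMS493 against co-culture it was 0, and 1 with the replicate block, the DESeq2 test, the 2 groups alone or without batch mbb340. Leaving out single replicates gave 3 to 4 calls for alone against ex vivo and 0 to 1 with ATRA or in co-culture. Leaving out alone replicate 3 for the listed genes called on entering culture was chosen after seeing the data. Alternatives that leave out a batch test fewer samples. Beside the calls named with their genes, the replicate block changed no other call of the 7 genes. In the cultured libraries Retnla and Pdcd1lg2 lie near the detection limit, as does Chil3 with BMS493. Small differences between cultured groups in these genes could therefore not be resolved at this depth.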
